A study of Arabidopsis thaliana with 18 samples.

Results

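The Q0990/UAS_YUC4 line was compared with the J0951/Col control in roots of 5-day-old Arabidopsis seedlings. The comparison uses 6 of the 18 libraries of the study, 3 per genotype, chosen by the genotype their labels give. The other 12 libraries come from 4 further lines that carry UAS_YUC4 under the drivers J0951, J0571, Q2500 and J0121, again with 3 libraries each. A driver line makes the yeast transcription factor GAL4 in some cells, and UAS_YUC4 places the auxin synthesis gene YUC4 behind the sequence that GAL4 binds. J0951/Col carries the J0951 driver and no UAS_YUC4, while Q0990/UAS_YUC4 carries a different driver together with the transgene, so the effects of the driver line and of the transgene cannot be told apart. The labels do not give the cells in which a driver is active. As background, Q0990 is used in the literature as a driver for young vascular cells of the root stele.

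Auxin (indole-3-acetic acid) is made from tryptophan in a short pathway in which TAA1 and its relatives form indole-3-pyruvate and flavin monooxygenases of the YUC family convert it to auxin. Auxin brings about the removal of Aux/IAA repressors and so frees ARF transcription factors, whose quick targets include the Aux/IAA genes themselves, SAUR genes, GH3 genes, whose enzymes conjugate auxin to amino acids, and LBD genes of lateral root initiation. In the root, auxin moves between cells through PIN efflux and AUX1/LAX influx carriers, and it guides vascular patterning, root hair growth and the elongation of epidermal cells, in which wall proteins such as expansins and pectin esterases take part.

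Levels are given in FPKM, fragments scaled to transcript length and library size, as the authors deposited them. Differences are on the log2(FPKM + 1) scale, on which low genes show less than their full change, and they are given as Q0990/UAS_YUC4 minus J0951/Col with their standard error (SE) unless another pair is named. A gene is called, and said to have risen or fallen, at a Benjamini-Hochberg adjusted p under 0.05 in a limma fit to all 18 libraries. Over the 6 libraries, summed FPKM ranged from 651395 to 675313 and between 18321 and 18494 genes reached 1 FPKM. Correlations of log2 values over genes were 0.990 to 0.993 among the Q0990/UAS_YUC4 libraries, 0.993 to 0.994 among the J0951/Col libraries and 0.984 to 0.991 between them. The root label was checked with markers of root cell identity. SCR and SHR, which specify the ground tissue, lay between 17.3 and 19.3 FPKM and between 16.1 and 21.2 FPKM over the 6 libraries. WER of non-hair epidermis lay between 12.7 and 17.8, CASP1 of the endodermal Casparian strip between 160 and 240, PLT1 of the stem cell niche between 4.51 and 6.66, and SMB of the root cap between 2.80 and 5.80 FPKM. None of these 6 genes was called, and their adjusted p ranged from 0.24 for SMB to 0.99 for WER. The seventh marker looked at, PIN2 of epidermis and root cap, lay between 36.5 and 63.4 FPKM and was called lower (-0.46, adjusted p = 0.026).

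The transgene's own target was the first check of the line, and it came out uneven. YUC4 (AT5G11320) stood at 0.27, 0.15 and 0.30 FPKM in the J0951/Col libraries and at 1.68, 11.95 and 0.29 FPKM in Q0990/UAS_YUC4 replicates 1, 2 and 3. The groups overlapped, because replicate 3 of Q0990/UAS_YUC4 lay within the control range, and the highest Q0990/UAS_YUC4 library was 41.2 times the lowest. The difference was 1.52 (SE 0.49) and was not called (adjusted p = 0.12), and an exact two-sided permutation test over the 6 libraries gave p = 0.2, where 0.1 is the smallest p that 3 libraries against 3 allow. Without replicate 3 of Q0990/UAS_YUC4 the difference was 2.25 with an adjusted p of 0.037, and without replicate 2 it was 0.59 with an adjusted p of 0.16. The 12 libraries of the other 4 UAS_YUC4 lines ran from 31.5 to 897 FPKM, so that the highest Q0990/UAS_YUC4 library reached 37.9% of the lowest of them. Against the mean of those 4 lines YUC4 was lower by a log2 difference of -5.13 (SE 0.39). YUC4 entered the test only through those lines, where it is high, so this value is a description. Reads of the endogenous gene and of the transgene were not separated in these values, and a low share of expressing cells cannot be told apart from a low level per cell.

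**Figure D1:**
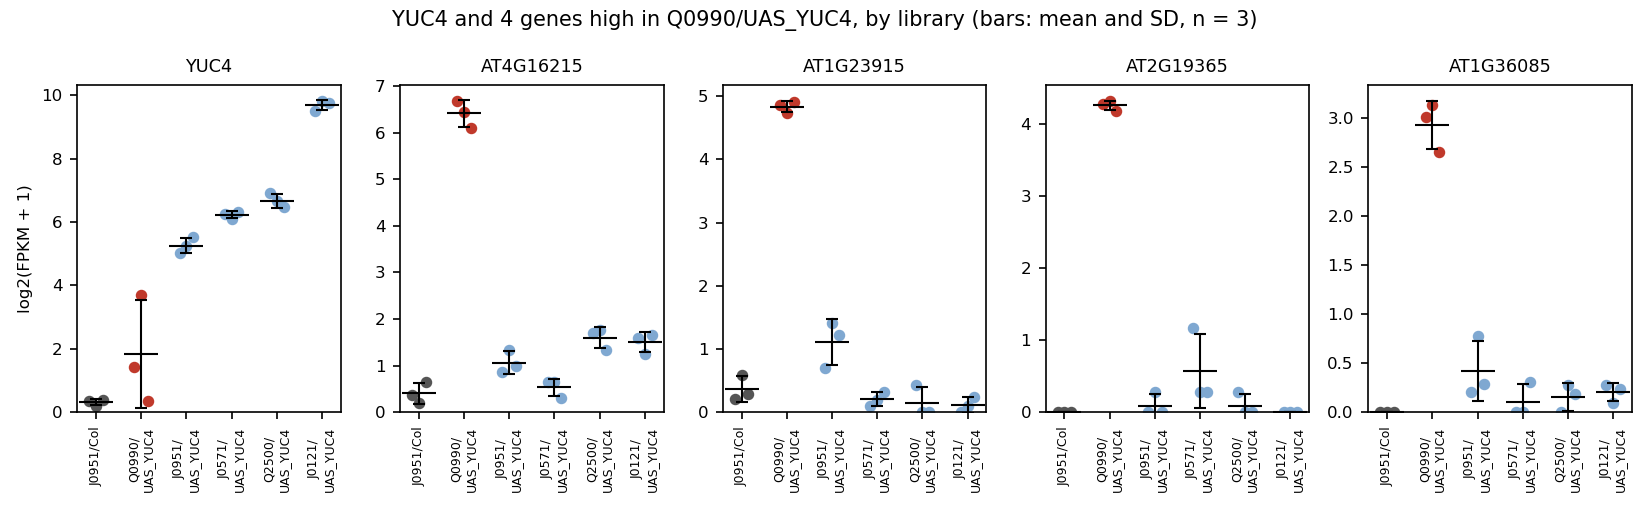
YUC4 and the 4 genes with the highest change in Q0990/UAS_YUC4, as log2(FPKM + 1) on the y axis, for each of the 3 libraries of the 6 genotypes; horizontal and vertical bars are the mean and SD. The YUC4 points of Q0990/UAS_YUC4 spread from 0.29 to 11.95 FPKM below all other UAS_YUC4 lines, while AT4G16215, AT1G23915, AT2G19365 and AT1G36085 are high in all 3 Q0990/UAS_YUC4 libraries and low in all 15 others.

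Of 19260 genes tested, 88 (0.457%) were called between Q0990/UAS_YUC4 and J0951/Col. Of these, 36 (0.187%) rose and 52 (0.27%) fell. At least a 2-fold difference was reached by 13 of the called genes (0.0675% of those tested), 7 of which were higher (0.0363%) and 6 lower (0.0312%). At an unadjusted p under 0.05 there were 3866 genes (20.1%), 2115 higher and 1751 lower, and the median difference over all tested genes was 0.02. The Q0990/UAS_YUC4 and J0951/Col libraries did not overlap in any of the 88 called genes, as in 4562 of all tested genes (23.7%), of which 2658 were higher (13.8%) and 1904 lower (9.89%). The count of calls moved with single libraries: it was 20 without Q0990/UAS_YUC4 replicate 3, 264 and 250 without its replicates 1 and 2, and 44, 34 and 22 without J0951/Col replicates 1, 2 and 3. It was 590 without replicate 3 of Q2500/UAS_YUC4, a library that enters this comparison only through the shared estimate of the spread and whose removal was chosen after seeing the data. With the 6 libraries fitted alone it was 25, of which 17 were higher and 8 lower. Rescaling the libraries by median of ratios gave 207 calls, 48 higher and 159 lower, and quantile normalization gave 130, 37 higher and 93 lower. A set of 14 of the 88 genes, 9 higher and 5 lower, was called in every alternative in which each was tested. In the fit to the 6 libraries alone, 17 of the 35 called genes named below lost their call, with adjusted p between 0.058 and 0.12. They were AT2G28780, AT5G66480, AT5G51470, PIN2 and all fallen genes named below other than AT2G05510, AT5G24070, sks16, AT5G45280 and AT1G07175.

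The comparisons of the other UAS_YUC4 lines with the same control libraries gave 7796 called genes (40.5%) for J0951/UAS_YUC4, 5275 (27.4%) for J0571/UAS_YUC4, 2180 (11.3%) for Q2500/UAS_YUC4 and 2557 (13.3%) for J0121/UAS_YUC4. These counts share the control libraries with the 88 of Q0990/UAS_YUC4.

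**Figure D2:**
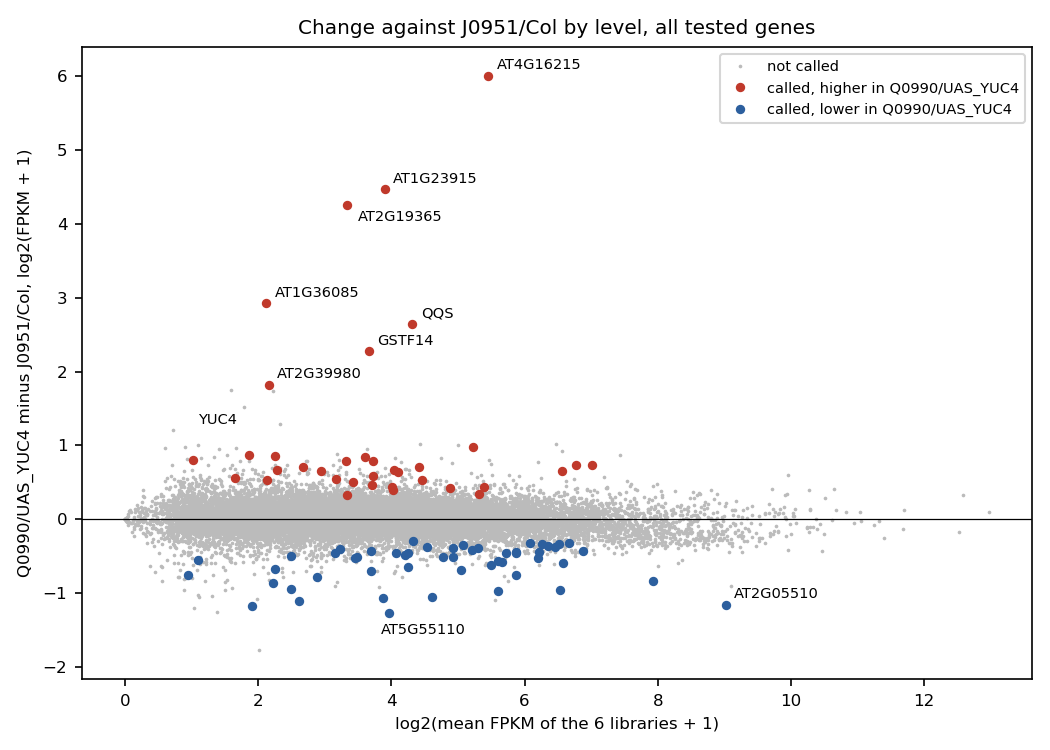
Difference between Q0990/UAS_YUC4 and J0951/Col (y axis, log2(FPKM + 1)) against the mean level of the 6 libraries (x axis, log2) for the 19260 tested genes; red points are the 36 genes called higher, blue points the 52 called lower. The 7 red points above 1.8 are AT4G16215, AT1G23915, AT2G19365, AT1G36085, QQS, GSTF14 and AT2G39980; YUC4, at 1.52, is not called.

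The 4 genes with the highest change lay at or near 0 in the control and above 5 FPKM in every Q0990/UAS_YUC4 library. AT4G16215, annotated as an uncharacterized protein, stood at 0.29, 0.14 and 0.57 FPKM in J0951/Col and at 102, 86.3 and 67.7 FPKM in Q0990/UAS_YUC4, a difference of 6.01 (SE 0.17, adjusted p = 8.1e-13). AT1G23915, also uncharacterized, stood at 0.15, 0.51 and 0.22 FPKM in the control and at 28.2, 25.6 and 29.1 FPKM in Q0990/UAS_YUC4, a difference of 4.48 (SE 0.17, adjusted p = 2.3e-11). The groups were far apart in both genes. AT2G19365, annotated with a Myb/SANT-like DNA-binding domain, was listed at 0 in all 3 control libraries and stood at 18.5, 18.9 and 17.2 FPKM in Q0990/UAS_YUC4 (adjusted p = 1e-10). AT1G36085, annotated as a mutator-like transposase, was likewise listed at 0 in the control and stood at 7.05, 7.76 and 5.31 FPKM in Q0990/UAS_YUC4 (adjusted p = 3.6e-09). No fold is given for these last genes, since the control is at 0 and the table holds no read counts. In the other 12 UAS_YUC4 libraries the highest value was 2.38 FPKM for AT4G16215, 1.66 for AT1G23915, 1.24 for AT2G19365 and 0.71 for AT1G36085, so Q0990/UAS_YUC4 was the high genotype of the 6 in each of them. AT1G23915, AT2G19365 and AT1G36085 entered the test only through Q0990/UAS_YUC4, where they are high, so their adjusted p are a description.

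These 4 genes lie on chromosomes 4, 1, 2 and 1 and are not neighbours of each other. The nearest tested genes on either side of each, 16 in all, were not called; the smallest adjusted p among them was 0.21, for AT2G19350 next to AT2G19365. The 13 called genes with at least a 2-fold difference formed no run of neighbouring tested genes, the longest run being 1 gene. The share of tested genes called was 0.415% on chromosome 1, 0.345% on chromosome 2, 0.446% on chromosome 3, 0.443% on chromosome 4 and 0.599% on chromosome 5. The sources used here do not give the strand of the reads, so a transcript from the opposite strand of any of these genes cannot be told apart from the gene, and reads of a transposase gene may belong to another copy.

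Other rises included genes with ordinary control expression, and several of them stood in Q0990/UAS_YUC4 at the level of the other UAS_YUC4 lines. QQS, an Arabidopsis-specific gene known for its effect on the allocation of carbon to starch and of nitrogen to protein, stood at 6.42, 2.95 and 4.02 FPKM in J0951/Col and at 21.6, 41.1 and 37.4 FPKM in Q0990/UAS_YUC4. The difference was 2.65 (SE 0.20, adjusted p = 1.1e-06). Its mean was 40.1 ± 1.45 FPKM (SD, n = 3) in J0951/UAS_YUC4, 45.1 ± 3.28 in J0571/UAS_YUC4, 39.1 ± 5.76 in Q2500/UAS_YUC4 and 46.8 ± 0.59 in J0121/UAS_YUC4, and the difference of Q0990/UAS_YUC4 from the mean of the 4 was -0.39 (SE 0.16, adjusted p = 0.066). The J0951/Col libraries were therefore the low ones for this gene among the 18.

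GSTF14, a phi-class glutathione transferase, stood at 3.78, 4.09 and 2.09 FPKM in the control and at 15.4, 18.1 and 26.5 FPKM in Q0990/UAS_YUC4, a difference of 2.28 (SE 0.27, adjusted p = 0.00034). The other lines had means of 15.9 to 23.4 FPKM, 0.08 away from Q0990/UAS_YUC4 on average (SE 0.21, adjusted p = 0.79). AT2G39980, of the HXXXD acyltransferase family, stood at 1.39, 0.82 and 0.72 FPKM in the control and at 6.37, 6.57 and 4.95 FPKM in Q0990/UAS_YUC4, a difference of 1.82 (SE 0.18, adjusted p = 4.6e-05). The other lines had means from 2.42 FPKM in Q2500/UAS_YUC4 to 8.08 FPKM in J0951/UAS_YUC4.

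PDIL1-4, a protein disulfide isomerase-like protein of the endoplasmic reticulum that was singled out after its values were seen, stood at 64.5, 75.4 and 77.6 FPKM in the control and at 113, 119 and 113 FPKM in Q0990/UAS_YUC4. The difference was small but even across libraries (0.66, SE 0.07, adjusted p = 6.6e-05). In J0951/UAS_YUC4 the mean of PDIL1-4 was 71.9 ± 5.09 FPKM, -0.01 from the control (adjusted p = 0.92). PDIL1-4 was called higher than the control in J0571/UAS_YUC4 (0.89), Q2500/UAS_YUC4 (0.71) and J0121/UAS_YUC4 (0.73). The genotypes with the J0951 driver were therefore the low ones for this gene, and the part of the driver line was not tested. NAC048, a NAC-domain transcription factor, stood at 2.14, 2.29 and 2.74 FPKM in the control and at 5.01, 4.92 and 5.42 FPKM in Q0990/UAS_YUC4, a difference of 0.85 (SE 0.13, adjusted p = 0.0043). NAC048 was also higher than in the mean of the other 4 lines, by 0.38 (SE 0.10, adjusted p = 0.0077). By single line it was not called against J0571/UAS_YUC4 (0.19, adjusted p = 0.28) or J0121/UAS_YUC4 (0.22, adjusted p = 0.39). Both of those lines were called higher than the control for NAC048 (0.67 and 0.63). The calls of QQS, GSTF14, AT2G39980, PDIL1-4 and NAC048 held with each of the 6 libraries left out in turn.

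Further calls among the risen genes depended on single libraries. EPR1, a MYB-like gene of the circadian system, rose from a mean of 7.72 ± 1.12 FPKM (SD, n = 3) to 14.6 ± 1.27 FPKM (0.84, SE 0.16, adjusted p = 0.021). AT2G28780, which RefSeq lists as a putative efflux pump subunit, rose from 24.4 ± 7.96 to 48.1 ± 7.51 FPKM (0.99, SE 0.16, adjusted p = 0.012). Every other UAS_YUC4 line was also called above the control, by 0.52 to 0.92 for EPR1 and 0.75 to 1.77 for AT2G28780. From the mean of those lines, Q0990/UAS_YUC4 lay 0.11 for EPR1 (adjusted p = 0.51) and -0.11 for AT2G28780 (adjusted p = 0.53). PIP2;4, an aquaporin of the plasma membrane, stood at 74.7, 83.9 and 82.5 FPKM in the control and at 124, 151 and 131 FPKM in Q0990/UAS_YUC4 (0.74, SE 0.12, adjusted p = 0.012), and it was also above the mean of the other 4 lines by 0.89 (SE 0.10, adjusted p = 1.7e-05). AT5G66480 stood at 5.42, 4.05 and 5.45 FPKM in the control and at 7.30, 8.76 and 8.96 FPKM in Q0990/UAS_YUC4 (0.65, SE 0.12, adjusted p = 0.019). The calls of EPR1, AT2G28780 and AT5G66480 ended without Q0990/UAS_YUC4 replicate 3 and without J0951/Col replicate 2 or 3, with adjusted p up to 0.13, 0.097 and 0.13. That of PIP2;4 ended without Q0990/UAS_YUC4 replicate 3 and without J0951/Col replicate 1 or 3, with an adjusted p up to 0.059. Against J0121/UAS_YUC4 by itself PIP2;4 was not called (0.30, adjusted p = 0.22). That line was called above the control for PIP2;4 (0.44, adjusted p = 0.029).

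Among the fallen genes, several code for proteins of the cell wall and the cell surface. The plot of wall and surface genes by library shows 13 of them. AT2G05510, of the glycine-rich protein family, was the most abundant of those named here. It stood at 653, 617 and 872 FPKM in the control and at 316, 399 and 251 FPKM in Q0990/UAS_YUC4, a difference of -1.15 (SE 0.17, adjusted p = 0.0055). The means of the other lines ran from 200 FPKM in J0571/UAS_YUC4 to 544 FPKM in J0121/UAS_YUC4. AT5G55110, of the STIG1 family of secreted cysteine-rich proteins, stood at 20.7, 17.2 and 24.6 FPKM in the control and at 7.74, 12.04 and 5.26 FPKM in Q0990/UAS_YUC4 (-1.27, SE 0.23, adjusted p = 0.019). AT5G24070, of the peroxidase superfamily, stood at 7.17, 6.25 and 8.61 FPKM in the control and at 3.52, 3.16 and 2.02 FPKM in Q0990/UAS_YUC4 (-1.11, SE 0.16, adjusted p = 0.0043).

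The multicopper oxidase-like SKU5-similar genes, relatives of the glycoprotein SKU5 that affects directional root growth, gave 3 falls. The gene sks16 stood at 17.9, 17.8 and 20.6 FPKM in the control and at 9.68, 9.96 and 6.10 FPKM in Q0990/UAS_YUC4 (-1.07, SE 0.14, adjusted p = 0.0011). Its relative sks15 stood at 27.3, 32.1 and 35.2 FPKM in the control and at 17.6, 17.1 and 10.4 FPKM in Q0990/UAS_YUC4 (-1.05, SE 0.16, adjusted p = 0.0065), and sks4 fell from a mean of 66.2 ± 5.30 to 48.6 ± 5.82 FPKM (-0.44, SE 0.08, adjusted p = 0.021). In all 3 genes replicate 3 was the lowest Q0990/UAS_YUC4 library. The family held 8 tested genes, with 3 called lower, 0 called higher and a median difference of -0.31, beside 0.27% called lower and a median of 0.02 over all tested genes.

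Some genes for pectin modification and wall loosening fell by smaller amounts, while most members of their families were not called. The pectin acetylesterase AT5G45280, the fallen gene with the smallest adjusted p, stood at 58.6, 60.1 and 60.8 FPKM in the control and at 40.0, 41.3 and 37.9 FPKM in Q0990/UAS_YUC4 (-0.58, SE 0.06, adjusted p = 6.8e-05). AT3G10720, of the pectin methylesterase and inhibitor superfamily, stood at 23.1, 25.5 and 26.9 FPKM in the control and at 19.0, 19.4 and 19.3 FPKM in Q0990/UAS_YUC4 (-0.37, SE 0.07, adjusted p = 0.021). That superfamily held 46 tested genes, of which 4 fell, 0 rose and 35 lay below 0, with a median of -0.15, beside 0.27% called lower and 8541 of 19260 below 0 over all tested genes. Among 11 pectin acetylesterases 2 fell and 0 rose. The expansins EXPA9 and EXPA11, which loosen walls during growth, fell from means of 84.3 ± 0.86 to 61.7 ± 5.29 FPKM and of 33.3 ± 0.88 to 25.4 ± 3.09 FPKM, by differences of -0.45 (SE 0.09, adjusted p = 0.03) and -0.38 (SE 0.07, adjusted p = 0.024). They were the 2 called genes of 16 tested alpha-expansins, whose median was -0.22. UGD2 and UGD3, UDP-glucose dehydrogenases that supply sugar for pectin and hemicellulose, fell from means of 112 ± 3.67 to 89.0 ± 3.35 FPKM and of 101 ± 3.86 to 80.1 ± 4.45 FPKM (both -0.33, adjusted p = 0.027 and 0.039).

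AGP30, an arabinogalactan protein, stood at 309, 316 and 300.5 FPKM in the control and at 156, 222 and 147 FPKM in Q0990/UAS_YUC4 (-0.84, SE 0.15, adjusted p = 0.016). AT5G10130, of the Ole e 1 and extensin family, stood at 69.5, 59.2 and 60.2 FPKM in the control and at 35.8, 38.9 and 22.3 FPKM in Q0990/UAS_YUC4 (-0.98, SE 0.17, adjusted p = 0.018). A family outside the wall, histone H2A, held 10 tested genes, of which 2 fell and 0 rose, with a median of -0.27. The families above were grouped after the called genes were seen, so their counts are a description. Against the same control, J0121/UAS_YUC4 was also called lower in AT5G55110 (-1.21), AGP30 (-0.92), sks15 (-0.90), sks16 (-0.88), AT5G10130 (-0.83) and AT5G24070 (-0.70). The same held for AT5G45280 (-0.52), UGD3 (-0.43), EXPA11 (-0.42), sks4 (-0.40), UGD2 (-0.39) and EXPA9 (-0.31). These falls were therefore not particular to Q0990/UAS_YUC4. AT2G05510 and AT3G10720 were not called in J0121/UAS_YUC4 (-0.39 and -0.07). Values of close relatives such as the SKU5-similar, STIG1 and expansin genes are uncertain as to which copy a read came from.

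**Figure D3:**
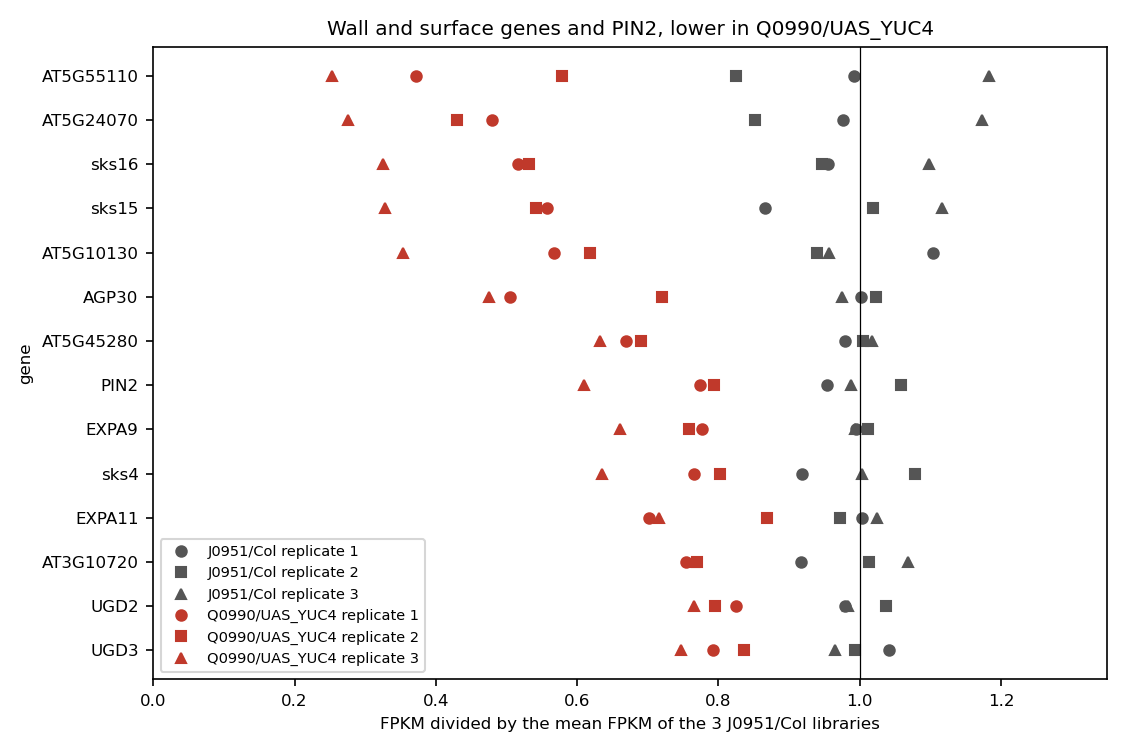
FPKM of each of the 6 libraries divided by the mean of the 3 J0951/Col libraries (x axis), for 13 wall and surface genes and PIN2 (y axis), all called lower; grey is J0951/Col, red is Q0990/UAS_YUC4, and the marker shape gives the replicate. No red point reaches a grey point of the same gene, and replicate 3 (red triangle) is the leftmost in all but EXPA11 and AT3G10720.

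Outside the wall, XPL1, which methylates phosphoethanolamine on the way to phosphocholine lipids, stood at 100.2, 139.7 and 120.7 FPKM in the control and at 89.97, 49.1 and 51.5 FPKM in Q0990/UAS_YUC4 (-0.95, SE 0.18, adjusted p = 0.027). XPL1 was also called lower than the control in J0571/UAS_YUC4 (-0.95) and J0121/UAS_YUC4 (-0.78), and not in J0951/UAS_YUC4 or Q2500/UAS_YUC4. AT1G07175, annotated as an alternative NAD(P)H dehydrogenase, stood at 6.67, 6.30 and 6.33 FPKM in the control and at 2.75, 2.90 and 2.92 FPKM in Q0990/UAS_YUC4 (-0.95, SE 0.13, adjusted p = 0.0035). LHT1, an amino acid importer, stood at 29.6, 39.0 and 36.0 FPKM in the control and at 24.8, 23.0 and 24.0 FPKM in Q0990/UAS_YUC4 (-0.51, SE 0.09, adjusted p = 0.017). AT5G20045, uncharacterized, fell from a mean of 8.36 ± 1.82 to 4.42 ± 0.76 FPKM (-0.78, SE 0.13, adjusted p = 0.012). Against the same control, AT5G20045 was also called lower in J0121/UAS_YUC4 (-0.66), and AT1G07175 in J0951/UAS_YUC4 (-0.66).

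Of the fallen genes named here, AT2G05510, AT5G24070, sks16, AT5G45280 and AT1G07175 kept their calls with each of the 6 libraries left out in turn. The calls of AT5G10130, AGP30, EXPA9, EXPA11, UGD2 and UGD3 ended without Q0990/UAS_YUC4 replicate 3 and without any 1 of the 3 J0951/Col libraries, with adjusted p up to 0.087, 0.12, 0.21, 0.17, 0.17 and 0.23. Those of LHT1, AT3G10720 and sks4 ended without Q0990/UAS_YUC4 replicate 3 and without J0951/Col replicate 2 or 3, with adjusted p up to 0.097, 0.11 and 0.13, and that of AT5G55110 without Q0990/UAS_YUC4 replicate 3 and without J0951/Col replicate 1 or 3, up to 0.13. XPL1 lost its call without Q0990/UAS_YUC4 replicate 2 or 3 and without J0951/Col replicate 2 or 3, up to 0.19. AT5G20045 lost it without Q0990/UAS_YUC4 replicate 3 (adjusted p = 0.097), and sks15 without J0951/Col replicate 3 (adjusted p = 0.053).

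The 3 Q0990/UAS_YUC4 libraries were ordered in the fallen genes. Replicate 3 was the lowest of the 3 in 40 of the 52 fallen genes (76.9%), against 39.8% of all tested genes, and replicate 2 was the highest in 36 of them (69.2%), against 28.6% of all tested genes. Among the 36 risen genes, replicate 3 was the highest in 18 (50%), against 27.3% of all tested genes. In the same libraries YUC4 was highest in replicate 2 and lowest in replicate 3. The part of this order in the calls was not tested.

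None of the 13 genes of an auxin response and development panel was called against the control, and the smallest adjusted p among them was 0.25, for ACS9. GH3.3, a GH3 gene that auxin induces strongly, stood at 2.90, 2.43 and 2.80 FPKM in J0951/Col and at 2.62, 1.91 and 2.92 FPKM in Q0990/UAS_YUC4, a difference of -0.10 (SE 0.19, adjusted p = 0.79). GH3.5 stood at 15.95, 17.3 and 17.1 FPKM in the control and at 19.2, 15.7 and 14.1 FPKM in Q0990/UAS_YUC4 (-0.05, SE 0.09, adjusted p = 0.79). GH3.6 stood at 13.1, 13.8 and 13.2 FPKM in the control and at 11.8, 12.3 and 10.8 FPKM in Q0990/UAS_YUC4 (-0.19, adjusted p = 0.44). The groups overlapped in GH3.3 and GH3.5, and in GH3.6 the Q0990/UAS_YUC4 libraries lay just below the control.

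The Aux/IAA genes IAA1 and IAA19 gave differences of 0.14 (SE 0.11, adjusted p = 0.47) and 0.02 (SE 0.11, adjusted p = 0.95), and the weakly expressed IAA5 and IAA29, at or below 0.59 FPKM in all 6 libraries, gave 0.05 and -0.13 (adjusted p = 0.91 and 0.60). The sign for IAA19 was reversed under median-of-ratios and quantile scaling. SAUR76, a small auxin-up RNA, stood at 1.82, 1.90 and 1.23 FPKM in the control and at 1.69, 3.03 and 1.34 FPKM in Q0990/UAS_YUC4 (0.16, SE 0.20, adjusted p = 0.68). LBD16 and LBD29 of lateral root initiation gave -0.06 each (adjusted p = 0.78 and 0.81), RSL4 of root hair growth 0.09 (adjusted p = 0.73), TAA1 -0.25 (SE 0.14, adjusted p = 0.32) and HB-8 of early vascular cells 0.12 (SE 0.07, adjusted p = 0.39). ACS9, an enzyme of ethylene synthesis, stood at 0.03, 0.10 and 0.10 FPKM in the control and at 0.37, 0.30 and 0.33 FPKM in Q0990/UAS_YUC4, without overlap (0.31, SE 0.15, unadjusted p = 0.051, adjusted p = 0.25).

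Against the mean of the other UAS_YUC4 lines, 9 of the 10 panel genes that reached 1 FPKM in all 6 libraries were called lower, beside 22.5% of all tested genes. The panel is a short chosen list, so this share is a description. ACS9, IAA5 and IAA29, at or below 0.37, 0.52 and 0.59 FPKM in the 6 libraries, entered the test only through the other lines, where they are higher, so their values in this contrast are a description. GH3.3 had means of 21.8 ± 3.15 FPKM (SD, n = 3) in J0951/UAS_YUC4, 7.96 ± 2.18 in J0571/UAS_YUC4, 11.2 ± 3.53 in Q2500/UAS_YUC4 and 8.07 ± 0.95 in J0121/UAS_YUC4, against 2.48 ± 0.52 in Q0990/UAS_YUC4. Q0990/UAS_YUC4 lay below the mean of the 4 lines by -1.81 for GH3.3 (SE 0.15, adjusted p = 8.3e-07), -1.19 for GH3.5 (adjusted p = 2.8e-08), -1.57 for GH3.6 (adjusted p = 8.8e-08) and -1.83 for SAUR76 (adjusted p = 1.5e-06). The differences of ACS9, IAA5 and IAA29 were -1.58, -0.91 and -0.65. IAA1, IAA19, LBD16, LBD29, TAA1 and RSL4 were also called lower in this contrast, and HB-8 was not (0.04, adjusted p = 0.59). Single lines departed from this mean, as LBD29 had means of 1.68 ± 0.33 FPKM in J0951/UAS_YUC4 and 1.45 ± 0.10 in J0571/UAS_YUC4, below the 2.31 ± 0.36 of Q0990/UAS_YUC4, and 7.37 ± 0.88 in J0121/UAS_YUC4.

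**Figure D4:**
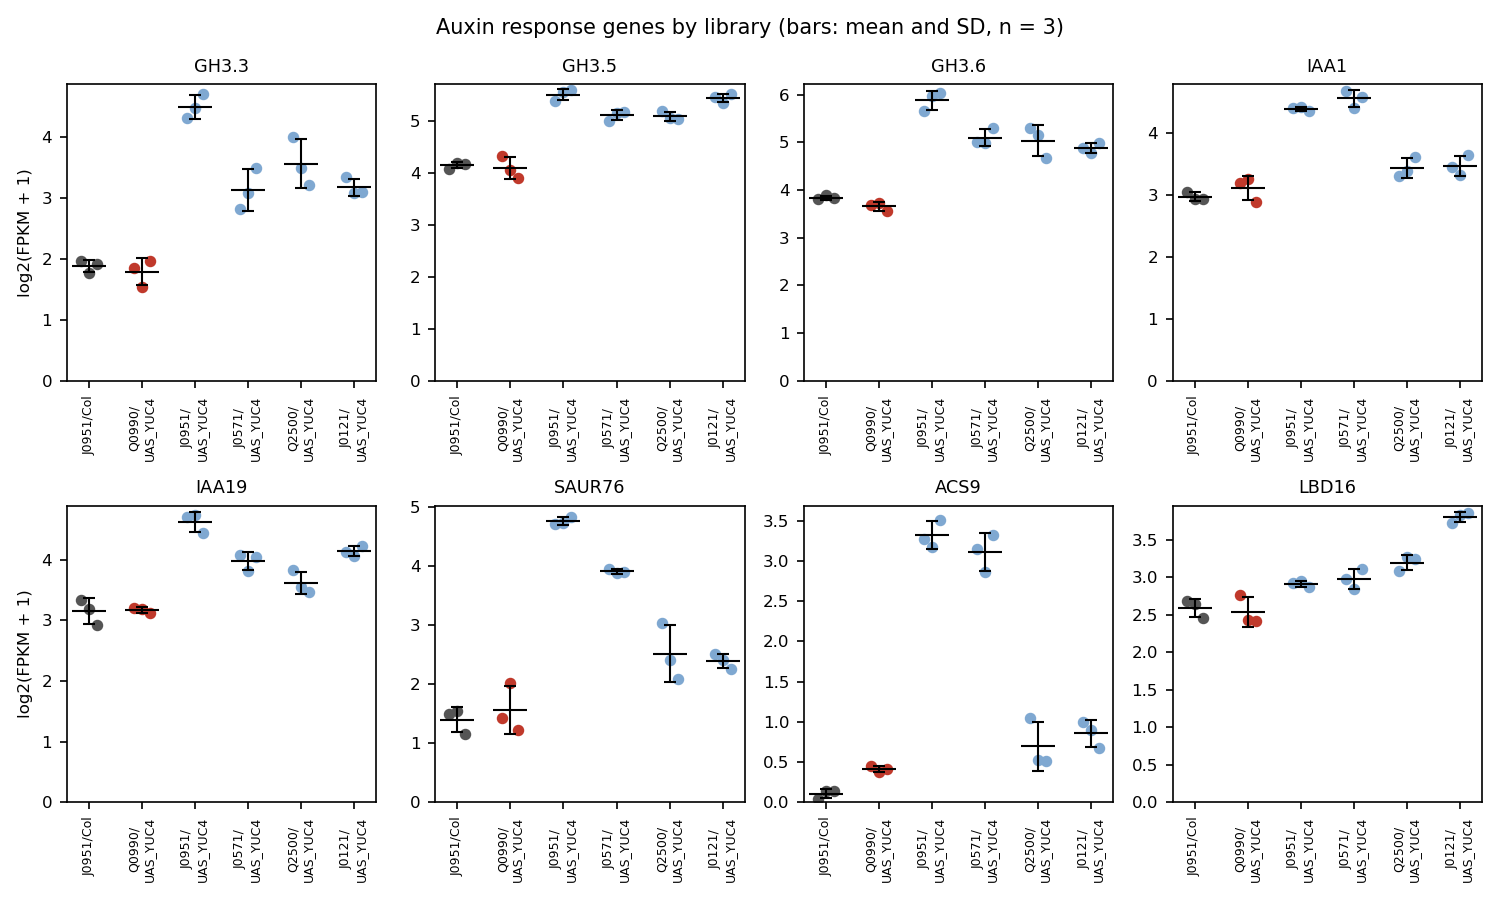
Level of 8 auxin response genes (y axis, log2(FPKM + 1)) in each of the 3 libraries of the 6 genotypes; bars are the mean and SD. Q0990/UAS_YUC4 (red) lies near J0951/Col (grey) in all 8 panels, with none of the 8 called between them. Libraries of Q0990/UAS_YUC4 and J0951/Col do not overlap in ACS9 (higher in Q0990/UAS_YUC4) and GH3.6 (lower in Q0990/UAS_YUC4). Q0990/UAS_YUC4 lies below the mean of the other 4 UAS_YUC4 lines (blue), for example by -1.81 for GH3.3 and -1.57 for GH3.6.

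The lists of auxin genes held a single call, described with the carriers. Against the control, 0 of 27 tested Aux/IAA repressors were called by limma, 3 being higher and 3 lower at an unadjusted p under 0.05, and their median difference was 0.05. Of 9 auxin inactivation genes 0 were called and 0 had an unadjusted p under 0.05 (median -0.07), and of 7 SAUR genes 0 and 0 likewise (median 0.08). Of 14 auxin synthesis genes 0 were called, 2 being lower at an unadjusted p under 0.05 (median 0.01). The lowest of them was YUC3, a root-expressed relative of YUC4, at 8.97, 9.47 and 11.3 FPKM in the control and 7.11, 8.65 and 6.78 FPKM in Q0990/UAS_YUC4 (-0.36, adjusted p = 0.11). Of 17 auxin receptors and ARF factors 0 were called (median 0.03, with 2 higher and 1 lower at an unadjusted p under 0.05), and of 13 lateral root initiation genes 0 were called, although 12 lay below 0 (median -0.08, 1 lower at an unadjusted p under 0.05).

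Against the mean of the other 4 lines, 6766 genes (35.1%) were called, 2424 higher (12.6%) and 4342 lower (22.5%). Under median-of-ratios scaling the split was 3238 higher and 3234 lower, and under quantile normalization 3086 and 3462, and without Q0990/UAS_YUC4 replicate 3 the count was 3236. By single line, 10345 genes (53.7%) were called against J0951/UAS_YUC4, 5012 (26%) against J0571/UAS_YUC4, 5024 (26.1%) against Q2500/UAS_YUC4 and 449 (2.33%) against J0121/UAS_YUC4. In that contrast with the mean, 14 of the 27 Aux/IAA repressors were lower and 5 higher, 5 of the 9 auxin inactivation genes were lower and 1 higher (median -0.82, beside -0.04 over all tested genes), and 11 of the 13 lateral root initiation genes were lower and 0 higher (median -0.36). Of the 7 SAUR genes 2 were lower and 1 higher, and of the 14 auxin synthesis genes 2 were lower and 2 higher.

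Auxin carriers included the 1 list member that fell. PIN2, the efflux carrier that moves auxin shootward through epidermis and root cap and that gravitropism needs, stood at 57.1, 63.4 and 59.1 FPKM in the control and at 46.3, 47.5 and 36.5 FPKM in Q0990/UAS_YUC4. All 3 Q0990/UAS_YUC4 libraries were below the control, and the difference was -0.46 (SE 0.09, adjusted p = 0.026). The call ended without Q0990/UAS_YUC4 replicate 3 and without any 1 of the J0951/Col libraries, with adjusted p up to 0.13. Of the 21 tested auxin transport genes, 1 fell and 0 rose, 7 were lower and 2 higher at an unadjusted p under 0.05, and the median was -0.08. PIN2 was -0.50 from the mean of the other 4 lines (adjusted p = 0.00012). By single line it was called lower than in J0951/UAS_YUC4, J0571/UAS_YUC4 and Q2500/UAS_YUC4. It was not called against J0121/UAS_YUC4, whose mean was 49.4 FPKM (-0.19, adjusted p = 0.29).

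GH3-type enzymes gave 2 rises outside the auxin list. AT5G51470 stood at 3.82, 3.87 and 3.78 FPKM in the control and at 7.79, 7.30 and 5.79 FPKM in Q0990/UAS_YUC4 (0.71, SE 0.11, adjusted p = 0.0058), and AT1G23160 at 7.80, 8.81 and 9.49 FPKM in the control and 15.98, 17.3 and 14.1 FPKM in Q0990/UAS_YUC4 (0.79, SE 0.14, adjusted p = 0.019). RefSeq names both as auxin-responsive GH3 family members, and they were picked out after their values were seen. Among all 14 tested genes with that family name, 2 rose and 0 fell, beside 0.187% and 0.27% of all tested genes, and the median was -0.02. Against the same control, AT5G51470 and AT1G23160 were also called higher in J0951/UAS_YUC4, J0571/UAS_YUC4 and J0121/UAS_YUC4. In Q2500/UAS_YUC4 they were not called (-0.05 and -0.14). The call of AT1G23160 ended without Q0990/UAS_YUC4 replicate 3 and without any 1 of the J0951/Col libraries, with adjusted p up to 0.085, and that of AT5G51470 held in each of these but not in the fit to the 6 libraries alone (adjusted p = 0.058).

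Cytokinin response regulators were the other list with a call. ARR15, a type-A response regulator that cytokinin induces and that damps its signal, stood at 0.56, 0.37 and 0.51 FPKM in the control and at 1.39, 1.71 and 1.66 FPKM in Q0990/UAS_YUC4 (0.81, SE 0.15, adjusted p = 0.019). Its call ended without Q0990/UAS_YUC4 replicate 3 and without any 1 of the J0951/Col libraries, with adjusted p up to 0.12, and its level in Q0990/UAS_YUC4 lay -0.02 from the mean of the other 4 lines (adjusted p = 0.89). ARR5 and ARR6, of the same class, stood at 28.6, 28.3 and 27.4 FPKM and at 30.6, 29.6 and 26.1 FPKM in the control, and at 37.2, 39.6 and 38.4 FPKM and 36.6, 38.0 and 39.3 FPKM in Q0990/UAS_YUC4. Neither overlapped and neither was called (0.44 and 0.39, adjusted p = 0.059 and 0.066), although ARR5 passed in the fit to the 6 libraries alone (adjusted p = 0.048), and both passed without Q2500/UAS_YUC4 replicate 3 (adjusted p = 0.024 and 0.019), where the cytokinin list held 3 calls. Both were above the mean of the other 4 lines, by 0.42 and 0.41 (adjusted p = 0.00099 and 0.00081). Against J0121/UAS_YUC4 by itself, neither ARR5 (0.21, adjusted p = 0.32) nor ARR6 (0.37, adjusted p = 0.053) was called. ARR7 differed by 0.30 from the control (adjusted p = 0.26) and by 1.02 from the other 4 lines (adjusted p = 2.2e-05). Of 18 tested cytokinin genes, 1 rose and 0 fell, 5 were higher and 1 lower at an unadjusted p under 0.05, and the median was 0.21.

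Vascular genes are of interest because of the reported use of the Q0990 driver, and no gene of the 3 vascular lists was called against the control. Of 23 vascular patterning genes 0 were called by limma, 2 being higher and 0 lower at an unadjusted p under 0.05, and the median was 0.02. The highest of them was ACL5, the thermospermine synthase of xylem precursors, at 108, 110 and 108 FPKM in the control and 134, 127 and 137 FPKM in Q0990/UAS_YUC4 (0.28, SE 0.10, adjusted p = 0.16), without overlap. It was called without Q2500/UAS_YUC4 replicate 3 (adjusted p = 0.031), which gave the vascular patterning list 1 call. Of 17 xylem secondary wall genes 0 were called and 0 had an unadjusted p under 0.05 (median -0.07), and of 15 phloem genes 0 were called, with 2 higher at an unadjusted p under 0.05 (median 0.04).

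Against the mean of the other 4 lines, 14 of the 17 xylem secondary wall genes were higher and 0 lower, beside 12.6% and 22.5% of all tested genes, with a median of 0.39, and 9 of the 15 phloem genes were higher and 1 lower, with a median of 0.30. Summed over its 18 genes, the xylem list held 400 to 464 FPKM in the Q0990/UAS_YUC4 libraries and 440 to 467 in J0951/Col, while J0951/UAS_YUC4 held 271 to 298, J0571/UAS_YUC4 343 to 365, Q2500/UAS_YUC4 292 to 364 and J0121/UAS_YUC4 333 to 393. LAC17, a laccase of lignin formation, gave 0.46 against the other 4 lines (adjusted p = 0.00052) and -0.16 against the control (adjusted p = 0.39), and APL, the phloem identity factor, gave 0.38 (adjusted p = 0.00044) and 0.19 (adjusted p = 0.21). Of the barrier genes of the endodermis, 12 of 17 suberin genes and 9 of 14 Casparian strip genes were higher than in the other 4 lines, with 0 and 1 lower, and 0 and 0 were called against the control. The suberin acyltransferase GPAT5 gave 0.57 against the other 4 lines (adjusted p = 0.001) and -0.30 against the control (adjusted p = 0.23). In bulk roots, fewer cells of a type and less RNA per cell cannot be told apart.

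**Figure D5:**
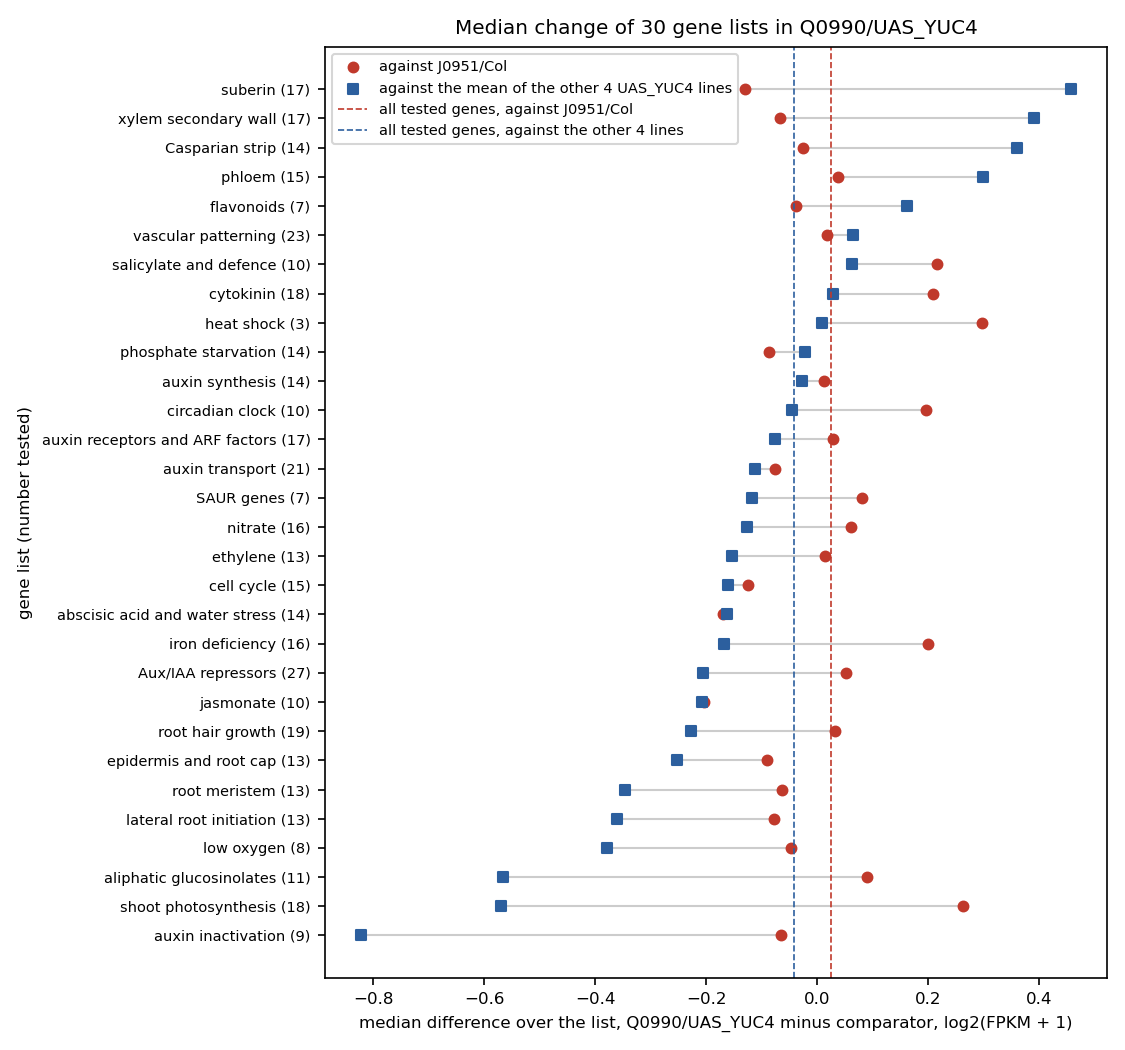
Median difference of Q0990/UAS_YUC4 on the log2(FPKM + 1) scale (x axis) over the tested genes of 30 gene lists (y axis, number of genes in brackets), against J0951/Col (red circles) and against the mean of the other 4 UAS_YUC4 lines (blue squares); dashed lines are the medians over all tested genes. The red circles lie between -0.20 and 0.30, and the blue squares reach from -0.82 for auxin inactivation to 0.46 for suberin.

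Of the 30 lists, the remaining ones held 0 calls against the control, with up to 2 for phosphate starvation and at most 1 for each other list under the alternatives tried. At an unadjusted p under 0.05, 4 of 15 cell cycle genes were lower and 0 higher (median -0.13), 4 of 13 epidermis and root cap genes were lower and 0 higher (median -0.09), 3 of 13 root meristem genes were lower and 0 higher (median -0.06), and 3 of 19 root hair genes were higher and 0 lower (median 0.03). Among 10 salicylate and defence genes 5 were higher and 1 lower (median 0.22), and among 10 circadian clock genes 2 were higher and 0 lower (median 0.20). These shares stand beside 11% of all tested genes higher and 9.09% lower at that threshold.

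Genes of shoot photosynthesis were taken as a sign of green tissue in the samples. All 18 differences were above 0, with a median of 0.26, 0 were called by limma and 3 had an unadjusted p under 0.05. Their summed level was 319 to 424 FPKM in J0951/Col and 399 to 478 FPKM in Q0990/UAS_YUC4, and it reached 725 to 1013 FPKM in J0951/UAS_YUC4. RBCS2B and LHCB2.2 lay at or below 0.52 and 0.73 FPKM in the 6 libraries, and transcripts of 87 plastid-encoded genes took 0.0427% to 0.0677% of summed FPKM in J0951/Col and 0.0530% to 0.0605% in Q0990/UAS_YUC4. The part of green tissue in the differences of other genes was not tested.

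A last comparison asked which genes set Q0990/UAS_YUC4 apart from each of the other 5 genotypes. In all, 7 genes (0.0363%) were called in the same direction in all 5 contrasts, 5 higher (0.026%) and 2 lower (0.0104%). The higher ones were AT4G16215, AT1G23915, AT2G19365, AT1G36085 and AT5G66480, and the lower ones LHT1 and AT3G10720. Since AT1G23915, AT2G19365 and AT1G36085 entered the test only through Q0990/UAS_YUC4, their place among these genes is a description. LHT1 had means of 34.4 to 42.0 FPKM in the other 5 genotypes against 24.0 ± 0.89 FPKM in Q0990/UAS_YUC4, and AT3G10720 had means of 23.9 to 33.2 FPKM against 19.2 ± 0.20 FPKM. AT5G66480 had means of 4.62 to 6.40 FPKM against 8.34 ± 0.91 FPKM. The count was 57 and 15 without Q0990/UAS_YUC4 replicates 1 and 2, 21 without Q2500/UAS_YUC4 replicate 3, and 4 without Q0990/UAS_YUC4 replicate 3 or without J0951/Col replicate 2 or 3.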

How the data were processed

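Per the labels' protocols, root RNA was extracted with a TIANGEN kit, copied with random primers and sequenced on an Illumina HiSeq. The authors deposited FPKM values for 25202 genes, normalized per transcript length and library; 0 of the 18 value columns were left out. The sources used here name no aligner or build. The table holds no read counts, so depth is unknown and no counting interval is given. Values were taken as log2(FPKM + 1). Genes that reached 1 FPKM in 3 or more libraries (19260) were fitted in limma 3.58.1 (R 4.3.3), with 1 mean per genotype, 12 residual degrees of freedom and a mean-variance trend, after a check on simulated data. P-values were Benjamini-Hochberg adjusted over all tested genes. They measure only how libraries of a genotype differ, possibly for technical reasons, since the labels name no separate cultures. Named genes were YUC4, a 13-gene panel, the 10 highest and 10 lowest called genes with non-overlapping libraries and a mean of at least 5 FPKM, up to 6 genes per direction set apart from every genotype, up to 4 called genes per list, and those said to be picked after their values were seen. ARR5, ARR6, ARR7, ACL5, GH3.6, LAC17, GPAT5, APL, YUC3, EXPA9, EXPA11, UGD2, UGD3, sks4, AT5G45280 and PIP2;4 were so picked. The comparison and the 30 lists (470 entries) were chosen with earlier results of these data known. Names and neighbours came from RefSeq (TAIR10.1), which matched 25000 nuclear genes; no coordinates or sequences were taken. An item withheld from the text is not reported here.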

Additional observations from a re-analysis of the deposited data

Results flagged for a closer look

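Each gene below differed between Q0990/UAS_YUC4 and the mean of the other 4 UAS_YUC4 lines in the same limma fit (adjusted p under 0.05), which is a test of the difference between their changes from J0951/Col. The values are Q0990/UAS_YUC4 minus that mean on the log2(FPKM + 1) scale.

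YUC4 itself gave -5.13. Among auxin response genes, GH3.3 gave -1.81, GH3.5 -1.19, GH3.6 -1.57 and SAUR76 -1.83. The Aux/IAA genes IAA1, IAA5, IAA19 and IAA29 gave -0.85, -0.91, -0.92 and -0.65. ACS9 gave -1.58 and TAA1 -0.87. IAA5, IAA29 and ACS9 lay below 1 FPKM in the Q0990/UAS_YUC4 and J0951/Col libraries and entered the test only through the other lines. YUC4 also entered only through the other lines, so the values of these genes are a description. LBD16 and LBD29 gave -0.69 and -0.33, and RSL4 gave -0.37.

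The 4 genes with the highest change gave 5.24 for AT4G16215, 4.44 for AT1G23915, 4.07 for AT2G19365 and 2.71 for AT1G36085. The last 3 of these entered the test only through Q0990/UAS_YUC4, so their values are a description. AT5G66480 gave 0.57, NAC048 0.38, PIP2;4 0.89 and AT1G23160 0.30. By single line AT1G23160 was called only against Q2500/UAS_YUC4 (0.93). NAC048 was not called against J0571/UAS_YUC4 or J0121/UAS_YUC4 by themselves, and PIP2;4 was not called against J0121/UAS_YUC4.

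Among genes lower than in the control, AT5G55110 gave -1.03, AT5G10130 -0.91, sks15 -0.80, sks16 -0.78 and sks4 -0.43. AT1G07175 gave -0.70, AT5G24070 -0.69, LHT1 -0.67, EXPA9 -0.53 and EXPA11 -0.33. AT5G20045 and AT3G10720 gave -0.51 each, AT5G45280 -0.46 and UGD2 -0.14. The carrier PIN2 gave -0.50. Of the genes in this paragraph, only AT1G07175, LHT1 and AT3G10720 were called lower against J0121/UAS_YUC4 by itself.

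The response regulators ARR5, ARR6 and ARR7 gave 0.42, 0.41 and 1.02. ACL5 gave 0.52, LAC17 0.46, APL 0.38 and GPAT5 0.57. Of the genes in this paragraph, only ARR7 and APL were called higher against J0121/UAS_YUC4 by itself.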

How the results depend on the processing

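The count of 88 calls against J0951/Col became 207 under median-of-ratios scaling, 142 with FPKM of at least 5 in 3 libraries, 25 in the 6 libraries alone and 590 without Q2500/UAS_YUC4 replicate 3 (chosen after seeing the data); the cause was not tested. Leaving out 1 library of either genotype gave 20 to 264. Pseudocounts of 0.1 and 5 and no filter gave 90, 99 and 85, quantile normalization 130. Of 35 called genes named, 14 kept their call in every alternative that tested them, 21 lost it in at least 1, 17 of them in the 6 libraries alone, and 0 reversed. The replicate block gave 127 calls, 84 shared with the 88. Same-numbered libraries of the 2 genotypes deviated together with r of -0.13, -0.27 and 0.11, and not every library correlated best with its own number. Deviations from a mean of 3 libraries cannot show whether same-numbered libraries were prepared together. Leaving out 1 library, the YUC4 difference was 0.59 to 2.25, the 6766 calls against the other lines became 3236 to 6793 (7730 without Q2500/UAS_YUC4 replicate 3), and the 7 genes apart from every genotype became 4 to 57, or 21 without Q2500/UAS_YUC4 replicate 3. IAA19 reversed to -0.011 under median-of-ratios scaling and -0.022 under quantile normalization. Panel genes near 0 also reversed with 1 library left out, over ranges of -0.19 to 0.024 for GH3.3, -0.17 to 0.047 for GH3.5, -0.10 to 0.16 for IAA5, -0.10 to 0.11 for IAA19, -0.17 to 0.0015 for LBD16, -0.17 to 0.032 for LBD29, -0.069 to 0.32 for SAUR76 and -0.056 to 0.21 for RSL4. Unknown depth limits genes under 1 FPKM.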
